A study of Mus musculus with 96 samples.

Results

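The genes described here make, phosphorylate or consume nicotinamide adenine dinucleotide (NAD). They are 10 mouse genes chosen by name (Nampt, Nmrk1, Nmnat1, Nmnat3, Nadk, Nadk2, Nnt, Sirt1, Sirt3 and Parp1), out of 54146 Ensembl genes in the count table, which holds them as 11 entries because Nnt is listed under 2 identifiers. All 10 genes were followed by RNA-seq through 35 conditions and 96 samples of C2C12, a mouse muscle cell line that proliferates as myoblasts and forms myotubes in low serum.

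Myoblasts came from stable lentiviral lines that carried a doxycycline-inducible transgene and were kept in 300 ng/ml doxycycline. The transgene was luciferase (the control), LbNOX (a bacterial enzyme that oxidizes NADH to NAD and makes water), mitoLbNOX (the same enzyme sent to the mitochondrial matrix) or NDI1 (the yeast enzyme that replaces proton-pumping complex I). These lines received DMSO, 0.5 µM piericidin (a complex I inhibitor), 0.5 µM antimycin (complex III) or 1 µM oligomycin (ATP synthase) for 10 hr, in 13 groups with 37 samples (n = 3, but n = 2 for both NDI1 groups). NDI1 myoblasts were treated with piericidin or DMSO, mitoLbNOX myoblasts with piericidin, antimycin or DMSO, and luciferase and LbNOX myoblasts with all 3 inhibitors or DMSO. A further 8 samples of luciferase and LbNOX myoblasts (n = 2 per group) received 20 µg/ml chloramphenicol, which blocks mitochondrial translation, or DMSO for 48 hr. The study describes these 48 hr treatments as made with uridine in the medium and fewer cells seeded, unlike the 10 hr groups.

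Cells without a transgene were taken after 24 hr in low serum (described by the labels as mostly post-mitotic and called day 1 cells here, 9 samples with DMSO, piericidin or oligomycin) or as myotubes after 4 days in low serum (27 samples in 9 groups). Myotubes received DMSO, piericidin, antimycin, oligomycin, 0.5 µM of the uncoupler BAM15, oligomycin with piericidin, oligomycin with BAM15, or DMSO or oligomycin at 5% oxygen, for 10 hr. The myotubes at 5% oxygen were already kept there from the night before, so their time at low oxygen is longer than the 10 hr of the agents. A last 15 myotube samples were transduced with adenovirus carrying GFP (n = 2 per group) or LbNOX with GFP (n = 3 per group) and treated with DMSO, piericidin or oligomycin. In myoblasts each transgene was carried by its own stable line, so line and transgene cannot be told apart there, while the transduced myotubes came from the same parental cells.

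NAD carries electrons from nutrients to complex I as NADH and is also a substrate: sirtuins and poly(ADP-ribose) polymerases split it and release nicotinamide. Muscle cells rebuild it mainly by salvage, in which NAMPT joins nicotinamide to a ribose phosphate to give nicotinamide mononucleotide, NMRK enzymes reach the same intermediate from nicotinamide riboside, and NMNAT enzymes complete NAD. NAD kinases add the phosphate that makes NADP, and the transhydrogenase NNT of the inner mitochondrial membrane uses the proton gradient to pass electrons from NADH to NADP, which gives NADPH.

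Libraries held from 6458295 to 15366745 counts (median 10336588.5). Levels are given as counts per 1000000 (CPM), scaled over all 96 samples by the trimmed mean of M values (TMM). The transgenes were counted only in the groups labelled with them, for example luciferase at 736 to 2574 counts and NDI1 at 372 to 434. These are raw counts, not scaled for library depth. Some treated samples held fewer transgene counts than DMSO samples of the same line. Luciferase had 736 to 1039 counts with antimycin and 1053 to 1183 with oligomycin against 1982 to 2523 with DMSO, and 766 to 1170 with chloramphenicol against 1888 to 2107. With antimycin there were 2189 to 3084 LbNOX counts against 9805 to 13457 in LbNOX myoblasts and 6152 to 8943 against 20419 to 24020 in mitoLbNOX myoblasts. In transduced myotubes, whose libraries held from 8708933 to 12646842 counts, oligomycin went with more transgene counts. LbNOX had 109211 to 153436 against 66817 to 79539 with DMSO. In the GFP groups eGFP had 88346 to 97928 against 66209 to 79228, a step that unequal depth could affect. The summed level of 7 differentiation markers was 11.1 to 92.3 CPM in myoblasts, 11651 to 12527 in day 1 cells and 10807 to 15334 in myotubes. Acta1 was the largest part of that sum, and the members did not move alike between these states. Tnnt3 was 477 to 539 CPM in day 1 cells, below the 882 to 1099.7 of all myotubes, while Myog was 1259.5 to 1963 in day 1 cells and 438 to 1824 in myotubes. The summed proliferation markers (Mki67, Ccnb1, Top2a and Cdk1) were 147 to 199.7 CPM in day 1 cells, above the 21.0 to 125 of myotubes and below the 561 to 1131 of myoblasts. Myod1 and Myf5, called myoblast markers below, did not separate myoblasts from the other states. Their sum was 60.4 to 281 CPM in myoblasts, 211 to 251 in day 1 cells and 117 to 185 in myotubes. The summed level of 5 markers of other cell types was 0.442 to 3.96 CPM in all samples. The labels give each sample a code of a letter and a number that they do not explain. Read as a well of a 96-well plate, which is an assumption made here, the code put all 3 DMSO samples of the control myoblasts at the plate edge, and none of the 17 calls against those samples was lost with that edge as a term.

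On GRCm38 the annotated genes lie at chr12:32819545-32853349 (Nampt, plus strand), chr19:18631950-18652428 (Nmrk1, plus strand), chr4:149467572-149485202 (Nmnat1, minus strand), chr9:98287435-98420438 (Nmnat3, plus strand), chr4:155562378-155591001 (Nadk, plus strand), chr15:9071260-9110891 (Nadk2, plus strand), chr13:119335528-119408952 (Nnt, minus strand), chr10:63319005-63381704 (Sirt1, minus strand), chr7:140863666-140882309 (Sirt3, minus strand) and chr1:180568924-180601254 (Parp1, plus strand). The sequences printed here are the stretches before the RefSeq start sites of Nampt, Parp1 and Sirt1, shown as examples of a gene that rose with every inhibitor in control myoblasts (Nampt), one that fell with every inhibitor (Parp1) and one that rose with piericidin and antimycin but was not called with oligomycin (Sirt1). Each is the 250 bases before the start site on GRCm38.p6, at chr12:32820085-32820334 (plus strand, inside the longer Ensembl gene), chr1:180568641-180568890 (plus strand) and chr10:63339036-63339285 (minus strand, also inside the longer Ensembl gene), in lower case with 4 searched motifs in capitals.
Nampt: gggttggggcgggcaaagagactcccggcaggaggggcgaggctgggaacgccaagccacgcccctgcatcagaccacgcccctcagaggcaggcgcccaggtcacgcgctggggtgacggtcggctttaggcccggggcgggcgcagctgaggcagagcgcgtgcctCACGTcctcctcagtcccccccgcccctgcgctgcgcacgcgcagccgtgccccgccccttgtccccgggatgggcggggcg
Parp1: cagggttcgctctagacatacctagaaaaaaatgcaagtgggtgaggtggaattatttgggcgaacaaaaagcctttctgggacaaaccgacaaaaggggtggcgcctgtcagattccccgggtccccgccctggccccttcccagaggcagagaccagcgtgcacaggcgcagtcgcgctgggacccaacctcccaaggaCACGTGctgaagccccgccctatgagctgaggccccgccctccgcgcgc
Sirt1: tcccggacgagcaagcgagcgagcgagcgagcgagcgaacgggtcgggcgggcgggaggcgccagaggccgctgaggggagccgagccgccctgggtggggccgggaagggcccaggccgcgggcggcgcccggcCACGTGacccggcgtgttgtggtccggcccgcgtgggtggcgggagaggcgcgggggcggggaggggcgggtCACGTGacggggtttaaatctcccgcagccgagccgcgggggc
The motifs, searched on both strands, were an ATF4 element core (TGATGNAA), the E-box CACGTG, the HIF element core ACGTG, which lies inside that E-box, and an E2F element core (TTNGCGC). Of 32851 promoter windows of the same length, 3.45%, 6.02%, 16.6% and 5.19% held them, respectively. The Nampt window held 1 HIF element core, at -82 to -78 from the start. The Parp1 window held 1 E-box, at -49 to -44. The Sirt1 window held E-boxes at -115 to -110 and -43 to -38. Nadk, which was also called higher with every inhibitor but with piericidin only by 0.087 on the log2 scale and not without any 1 replicate, has 2 RefSeq windows that are not printed, of which 1 held none of the motifs and the other 1 E-box and, outside it, 1 HIF element core. These matches are descriptions of the letters only. RefSeq windows were found for 8 of the 10 genes, and Nadk2 and Nnt had none.

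Levels of different genes were compared as CPM per kilobase of the longest coding transcript. In DMSO-treated control myoblasts the cytosolic NAD kinase gene Nadk stood highest, at 101 ± 0.787 CPM per kb (mean ± SD, n = 3 here and in the values that follow). Parp1 had 33.7 ± 2.03, Nnt 18.6 ± 0.999 and Nampt 15.1 ± 0.745 CPM per kb, with no overlap between these 4. Nmnat1, Sirt3 and Nmrk1 came next, at 4.32 ± 0.319, 3.79 ± 0.441 and 3.32 ± 0.460 CPM per kb, and these neighbours lay within their spread. Nadk2 and Sirt1 were lower, at 1.28 ± 0.175 and 0.711 ± 0.0422. Nmnat3, the gene of the mitochondrial NMNAT, was near the floor with 0 to 41 counts over all 96 samples, so it was tested only in myotubes and between cell states.

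Day 1 cells and myotubes kept these 4 genes above the other 6 but not in the same order. In DMSO-treated myotubes Nadk had 35.2 ± 0.563, Nnt 22.3 ± 1.69, Parp1 18.4 ± 1.12 and Nampt 9.002 ± 0.682 CPM per kb. In day 1 cells Nnt, at 32.2 ± 1.29 CPM per kb, stood above Parp1, at 17.7 ± 0.473, and Nampt was lower, at 6.64 ± 0.348. Sirt1 and Nadk2 rested on few counts per sample (13 to 68 for Sirt1 and 18 to 91 for Nadk2), which limits what can be seen of them.

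**Figure D1:**
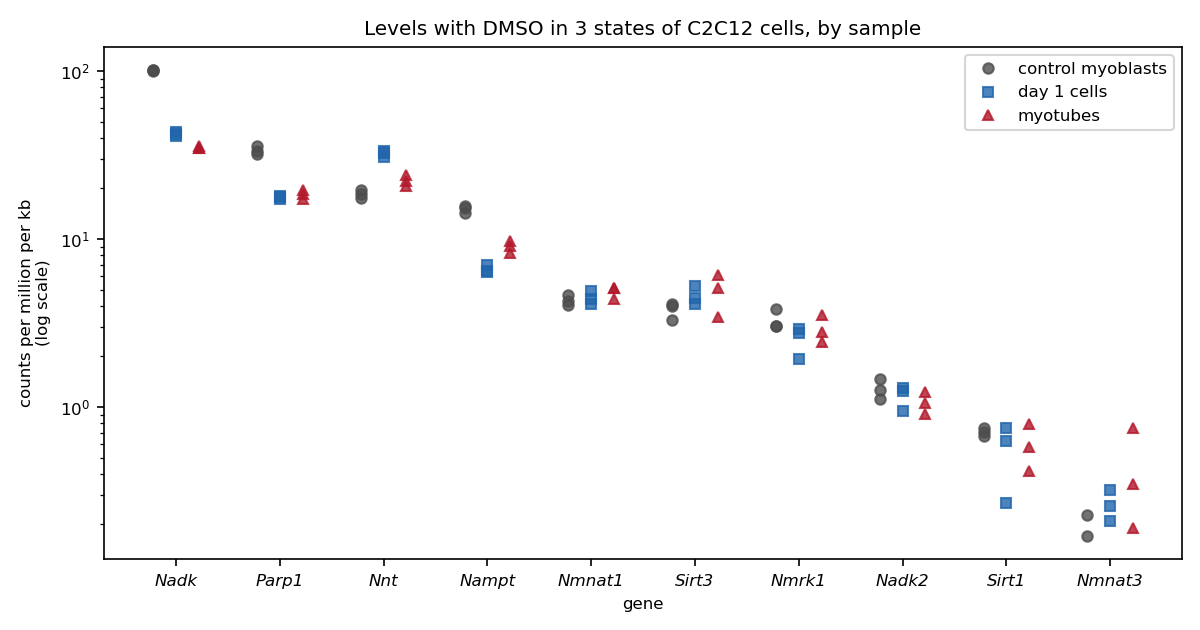
Levels of the 10 genes in DMSO-treated control myoblasts, day 1 cells and myotubes, in CPM per kilobase of the longest coding transcript on a log axis. Points are samples (n = 3 per state); Nadk is the highest gene in each state and Nmnat3 the lowest.

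Over the 35 condition means, the ratio of the highest to the lowest CPM was 4.50 for Nadk (antimycin-treated LbNOX myoblasts against BAM15-treated myotubes), 3.90 for Nmrk1 (antimycin-treated LbNOX against antimycin-treated control myoblasts), 3.37 for Sirt1, 2.99 for Nampt and 2.66 for Sirt3. For Nnt, Nadk2, Nmnat1 and Parp1 it was 2.34, 2.32, 2.16 and 2.14, and for Nmnat3 the lowest mean was 0. Most neighbours in these orders could not be separated. With the conditions sorted by their mean, the samples of 2 neighbouring conditions failed to overlap at 4 of 34 steps for Nadk, 2 each for Nampt and Nnt, 1 each for Parp1 and Nmrk1 and 0 for the other 5 genes.

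The first comparison asks how inhibitors of different parts of oxidative phosphorylation changed these genes in control myoblasts. Piericidin changed all 9 tested members (4 higher and 5 lower), antimycin 5 (3 higher and 2 lower) and oligomycin 3 (2 higher and 1 lower), in the edgeR quasi-likelihood test at an adjusted p under 0.05. Called genes made up 61.7%, 63.2% and 50.8% of all 11981 genes tested in these comparisons, with 30.9% higher and 30.8% lower for piericidin, 32.1% higher and 31.1% lower for antimycin, and 24.5% higher and 26.3% lower for oligomycin. Over the 3 together, 63.0% of member tests and 58.5% of all tests passed, so the members were called about as often as other genes. Nampt and Nadk rose and Parp1 fell with each of the 3 inhibitors, Sirt1 rose with piericidin and antimycin, and Sirt3 rose with piericidin. The 3 comparisons share the DMSO samples. Markers of cell state also differed between these groups. Of the myoblast markers, Myod1 was 119.9 to 126 CPM with DMSO, 73.7 to 77.9 with piericidin, 130.5 to 152 with antimycin and 63.3 to 71.1 with oligomycin, and Myf5 was 9.81 to 12.9 CPM with DMSO, 53.8 to 57.3 with piericidin, 126 to 134 with antimycin and 14.6 to 17.8 with oligomycin. Of the differentiation markers, Acta1 was 14.5 to 19.1 CPM with DMSO, 26.5 to 31.8 with piericidin, 81.7 to 91.1 with antimycin and 21.4 to 29.7 with oligomycin, and it made up nearly all of their sum in myoblasts, where none of the other 6 exceeded 1.84 CPM. Myf5 and Acta1 were higher with each inhibitor than with DMSO, Myod1 was lower with piericidin and oligomycin, and the part of these markers in the results was not tested. Labels do not say that replicates were separate cultures, so p-values measure only the spread between these samples, and in bulk RNA fewer cells with a transcript and less of it per cell cannot be told apart.

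Nampt, whose product limits the rate of NAD salvage from nicotinamide, had 68.8, 64.9 and 71.6 CPM in the 3 DMSO samples. It had 83.5, 85.7 and 85.1 CPM with piericidin, 89.2, 88.1 and 92.1 with antimycin and 90.3, 91.0 and 82.7 with oligomycin. Every inhibitor-treated sample lay above every DMSO sample, while the 3 inhibitors lay close together. The log2 fold changes were 0.34 ± 0.067 (adjusted p = 5.32e-05) with piericidin, 0.44 ± 0.067 (adjusted p = 1.44e-06) with antimycin and 0.38 ± 0.066 (adjusted p = 1.97e-05) with oligomycin, by edgeR with Benjamini-Hochberg adjustment (± is the SE from the fit, here and for the log2 values that follow). All 3 calls held under each alternative and without each replicate, where a replicate number was left out of every group of the fit at once. Of the 54 calls in all that are lost without a replicate, 37 are also lost under at least 1 other alternative, most often without the filter on low counts.

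Nmrk1, the nicotinamide riboside kinase, had 5.93, 7.47 and 5.93 CPM with DMSO and 2.27, 2.83 and 4.03 with antimycin. The antimycin samples lay below all DMSO samples, and Nmrk1 fell by 1.05 ± 0.25 on the log2 scale (adjusted p = 0.000619) in edgeR, a call that held under each alternative. With piericidin it had 3.97, 4.51 and 4.32 CPM, again below DMSO, a fall of 0.56 ± 0.24 on the log2 scale (adjusted p = 0.0443) that was lost when any 1 replicate was left out (edgeR adjusted p up to 0.147). With oligomycin the values, 6.92, 4.93 and 5.75 CPM, overlapped DMSO. Nmnat1, the nuclear enzyme that completes NAD, had 11.3, 12.4 and 10.7 CPM with DMSO and 9.98, 5.83 and 6.75 with piericidin. One piericidin sample stayed close to DMSO and the others were well below, a fall of 0.58 ± 0.19 on the log2 scale (adjusted p = 0.00779) by edgeR. Without replicate 2 or without replicate 3 the Nmnat1 call was lost (edgeR adjusted p up to 0.102).

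Among the genes that act on NADP, Nadk had 314, 319 and 318 CPM with DMSO, 358, 351 and 342 with antimycin and 387, 381 and 364 with oligomycin. The DMSO samples were tight and every antimycin and oligomycin sample was above them. The steps were small, with log2 fold changes of 0.19 ± 0.035 (adjusted p = 3.6e-05) with antimycin and 0.26 ± 0.035 (adjusted p = 2.32e-07) with oligomycin by edgeR. Piericidin gave 318, 341 and 327 CPM, which overlapped DMSO. That log2 fold change of 0.087 (edgeR adjusted p = 0.0344) was lost without any 1 replicate, up to an adjusted p of 0.711.

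Nadk2, the mitochondrial NAD kinase gene, had 5.47, 4.72 and 4.17 CPM with DMSO and 3.74, 1.98 and 2.32 with piericidin. It fell by 0.80 ± 0.33 on the log2 scale (adjusted p = 0.0346) in edgeR, a call lost without any 1 replicate (adjusted p up to 0.108). Nnt had 65.6, 58.9 and 61.8 CPM with DMSO and 47.2, 46.2 and 50.4 with piericidin. The piericidin samples lay in a narrow band below DMSO, and the edgeR fall of 0.34 ± 0.10 on the log2 scale (adjusted p = 0.00483) held under each alternative and without each replicate. With antimycin and oligomycin neither gene passed the test, and the 95% intervals of the log2 fold change were -0.23 to 0.17 and -0.34 to 0.051 for Nnt.

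Parp1, the enzyme that spends NAD on ADP-ribosylation at DNA breaks, was the member with the smallest adjusted p with piericidin and with antimycin. It had 129, 124 and 139 CPM with DMSO, 67.6, 82.7 and 72.7 with piericidin, 77.8, 74.6 and 72.8 with antimycin and 117, 113 and 92.5 with oligomycin. All inhibitor-treated samples were below DMSO, and those with oligomycin were the least lowered. Parp1 stood at 0.584 of the DMSO level with piericidin (log2 fold change -0.78 ± 0.069, adjusted p = 4.51e-11) and at 0.593 with antimycin (-0.75 ± 0.069, adjusted p = 8.34e-11) by edgeR. With oligomycin the fall was 0.27 ± 0.068 on the log2 scale (adjusted p = 0.00156) by edgeR, and it was lost without replicate 3 (adjusted p = 0.153). The proliferation markers were lower in sum in the same groups, where the summed level of the 4 genes was 1059 to 1106 CPM with DMSO, 899 to 955 with piericidin, 646 to 676 with antimycin and 873 to 910.1 with oligomycin. Among them Ccnb1 was not lower with piericidin or oligomycin, at 314 to 357 and 295 to 312 CPM against 295 to 305 with DMSO, and it was lower with antimycin (247 to 248). The part of these markers in the result was not tested.

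The sirtuin genes code for deacetylases that use NAD, SIRT1 mostly in the nucleus and SIRT3 in mitochondria. Sirt1 had 3.34, 2.96 and 3.15 CPM with DMSO, 4.195, 7.26 and 3.79 with piericidin, 6.70, 6.11 and 5.64 with antimycin and 2.16, 2.77 and 1.73 with oligomycin. Antimycin and piericidin samples were all above DMSO and oligomycin samples all below. The antimycin rise, 1.01 ± 0.30 (adjusted p = 0.00380) in log2 fold change by edgeR, held under each alternative. The piericidin rise of 0.72 ± 0.30 (adjusted p = 0.0364) by edgeR was lost without replicate 2 (adjusted p = 0.524) and also without replicate 1. Oligomycin did not pass, at -0.48 ± 0.31 (adjusted p = 0.214) in log2 fold change by edgeR.

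Sirt3 had 6.58, 6.42 and 5.28 CPM with DMSO, 11.1, 9.35 and 10.4 with piericidin, 5.91, 8.94 and 5.87 with antimycin and 6.02, 4.07 and 4.49 with oligomycin. Piericidin stood apart from the other 3 groups, which overlapped. Its log2 fold change against DMSO was 0.79 ± 0.21 (adjusted p = 0.00197) by edgeR and held under each alternative and without each replicate. Sirt3 shares exon sequence with Ric8a and Psmd13, Sirt1 with Gm16145 and Parp1 with Mir6904. The libraries do not mark strand, so reads in the shared stretches cannot be assigned with certainty.

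**Figure D2:**
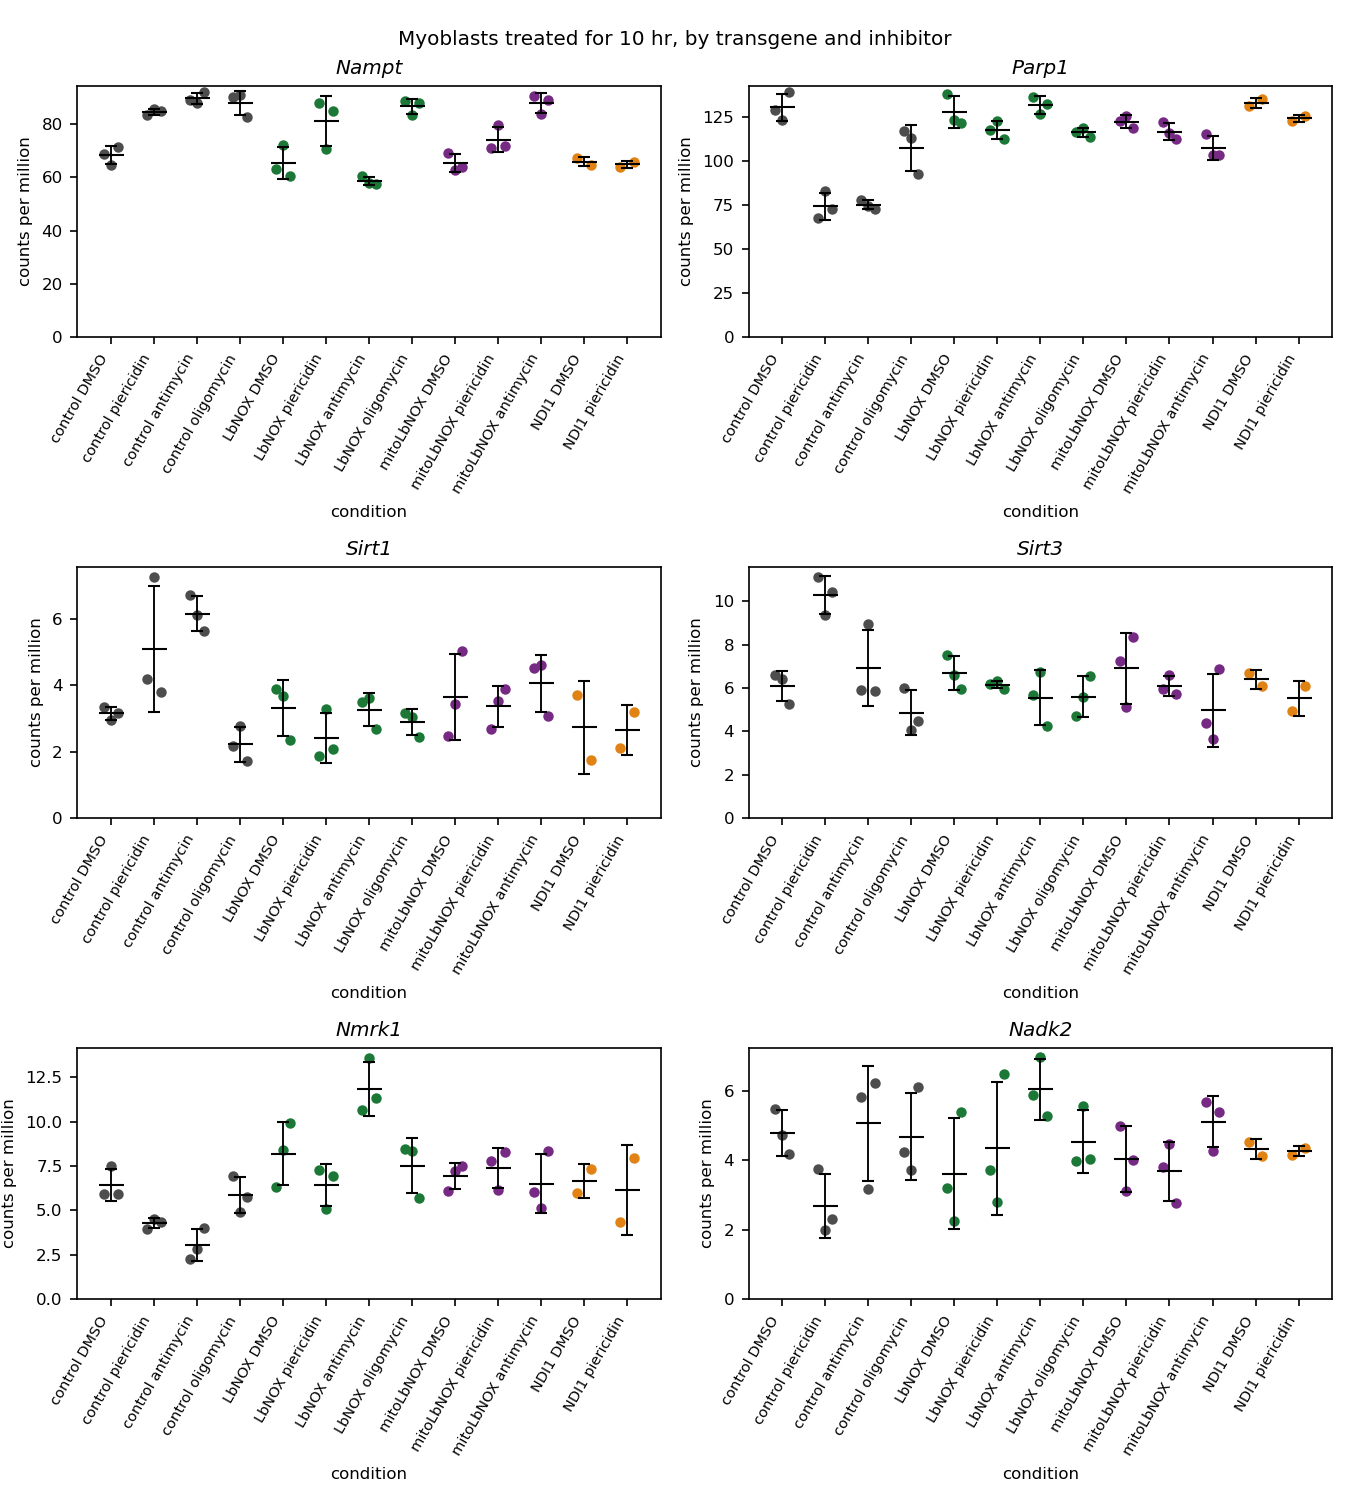
Levels of Nampt, Parp1, Sirt1, Sirt3, Nmrk1 and Nadk2 in the 13 groups of myoblasts treated for 10 hr, in CPM. Points are samples and bars are the mean ± SD (n = 3, n = 2 for NDI1). In control myoblasts every piericidin and antimycin sample of Parp1 lies below the DMSO samples, and in the other lines all Parp1 points lie above those samples, with antimycin-treated mitoLbNOX samples below their own DMSO.

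Setting the inhibitors against each other in control myoblasts asks which members answered to one agent more than to another. Antimycin against piericidin passed for 4 of 9 members (37.2% of all genes), antimycin against oligomycin for 4 (50%) and piericidin against oligomycin for 4 (39.2%). Sirt1 stood above oligomycin in the antimycin group by 1.49 ± 0.31 (adjusted p = 0.00017) in log2 fold change (edgeR), a call that held under each alternative. It was also higher with piericidin than with oligomycin, at 1.20 ± 0.31 (adjusted p = 0.00244) by edgeR, lost without replicate 2 (adjusted p = 0.0590). For Parp1, both inhibitors of electron transport gave lower levels than oligomycin, by 0.51 for piericidin and 0.49 for antimycin on the log2 scale, with edgeR adjusted p of 6.04e-07 and 8.01e-07. Piericidin and antimycin were not separated for Parp1, with an interval of -0.11 to 0.16 for the log2 difference.

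Sirt3 stood above oligomycin in the piericidin group by 1.10 ± 0.22 (adjusted p = 0.000146) and lower with antimycin than with piericidin by 0.57 on the log2 scale (edgeR adjusted p = 0.0368). The first held under each alternative. The second was lost without replicate 1 or 3 (adjusted p up to 0.358). Sirt3 in antimycin against oligomycin, 0.53 ± 0.22 (adjusted p = 0.0474) by edgeR, overlapped between groups and was lost under most alternatives. Nmrk1 was lower with antimycin than with oligomycin by 0.92 on the log2 scale (edgeR adjusted p = 0.00342, lost without replicate 1 at 0.122). Nadk2 and Nnt were higher with antimycin than with piericidin, by 0.93 and 0.31 on the log2 scale (edgeR adjusted p = 0.0267 and 0.0172). Leaving out replicate 1 or 3 ended both calls, with adjusted p up to 0.186 and 0.121, and leaving out replicate 2 also ended that of Nnt. Nadk was lower with piericidin than with oligomycin by 0.18 on the log2 scale (edgeR adjusted p = 0.000161), which held, and lower than with antimycin by 0.10 (adjusted p = 0.0264), which was lost without any 1 replicate.

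**Figure D3:**
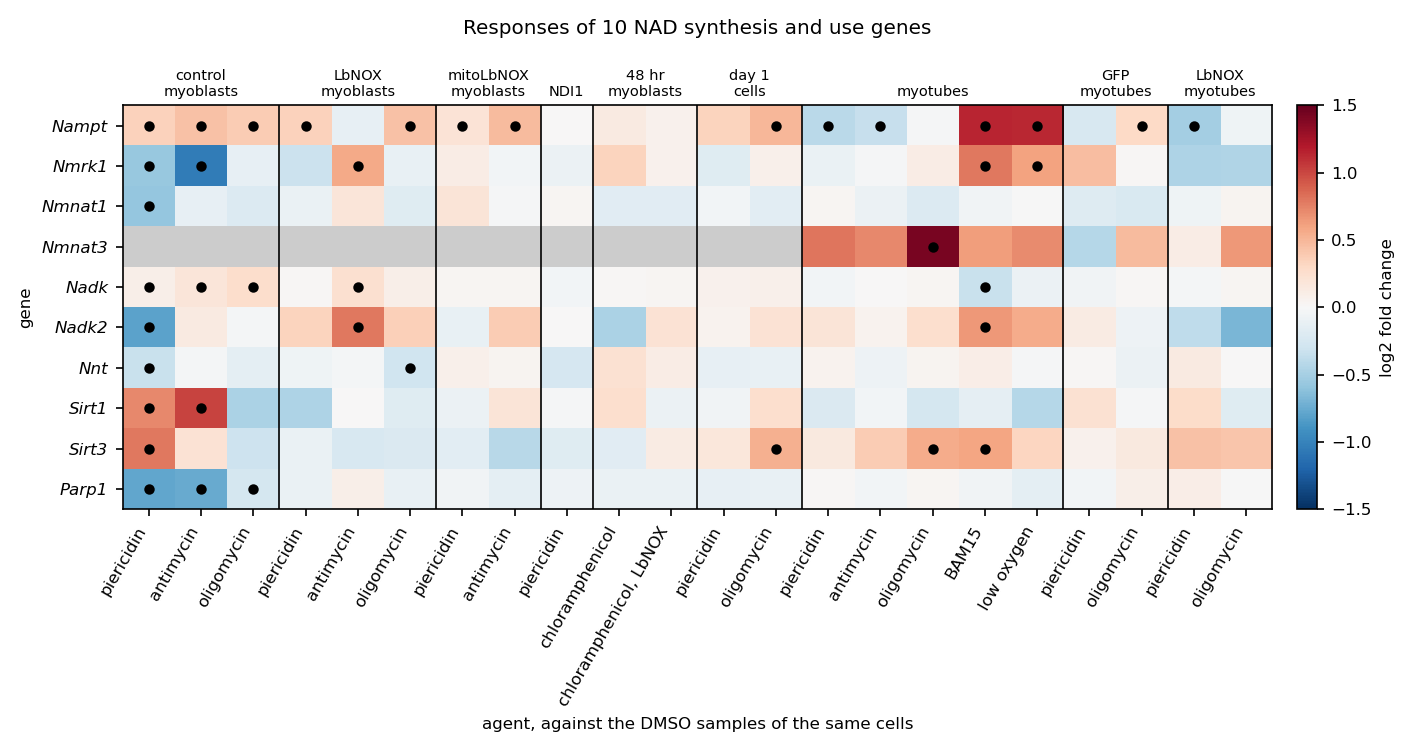
Heat map of the log2 fold change of each of the 10 genes in 22 comparisons of an agent or low oxygen with its control, on a colour scale from -1.5 to 1.5. Black dots mark an edgeR adjusted p under 0.05 and grey marks genes not tested; Nampt is dotted in the most comparisons and in both directions.

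The transgene lines ask how the same inhibitors acted where NADH could be oxidized by another enzyme. With DMSO the lines differed little from luciferase in these genes: 0 of 9 members were called for LbNOX (2.68% of all genes) and for mitoLbNOX (1.77%), with 1 and 0 at an unadjusted p under 0.05 in edgeR and 0 called by DESeq2 in both. NDI1 gave 1 of 9 (4.61%), Nadk at 0.18 ± 0.039 (adjusted p = 0.00433), and this was lost without replicate 1 or 2 (adjusted p up to 0.254). Against their own DMSO, 8 of 54 member tests in the 3 lines passed (14.8%, against 24.8% of all tests).

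The Parp1 response to piericidin and antimycin differed between lines. With piericidin it had 118, 123 and 112 CPM in LbNOX myoblasts, against 138, 124 and 121 with DMSO. In mitoLbNOX myoblasts it had 122, 116 and 112 with piericidin and 123, 126 and 119 with DMSO, and in NDI1 myoblasts 123 and 125 with piericidin and 131 and 135 with DMSO. None of these samples came near the 67.6 to 82.7 CPM of the piericidin-treated control myoblasts. The piericidin log2 fold change had an interval of -0.23 to 0.037 in LbNOX, -0.18 to 0.084 in mitoLbNOX and -0.23 to 0.091 in NDI1 myoblasts, and none of the 3 passed.

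Tested as an interaction, which is the log2 fold change in the transgene line minus that in luciferase, the Parp1 response to piericidin differed by 0.68 ± 0.10 (adjusted p = 9.39e-07) for LbNOX (44.3% of all genes called). It differed by 0.73 ± 0.10 (adjusted p = 3.29e-07) for mitoLbNOX (42.8%) and by 0.71 ± 0.11 (adjusted p = 3.19e-06) for NDI1 (42.7%), in edgeR. The response to antimycin differed by 0.84 ± 0.10 (adjusted p = 1.85e-08) for LbNOX (51.5%) and 0.61 ± 0.10 (adjusted p = 1.33e-05) for mitoLbNOX (31.7%) by edgeR. These 5 calls held under every alternative and without each replicate, and all share the luciferase samples. With antimycin Parp1 had 136, 127 and 132 CPM in LbNOX and 115, 103 and 104 in mitoLbNOX myoblasts. The antimycin log2 fold change against the line's own DMSO had an interval of -0.049 to 0.22 in LbNOX and -0.28 to -0.012 in mitoLbNOX myoblasts, where the samples lay below all DMSO samples but the test did not pass (-0.15 ± 0.068, adjusted p = 0.0800 by edgeR). With antimycin the summed level of the 4 proliferation markers was 561 to 599 CPM in LbNOX and 635 to 672 in mitoLbNOX myoblasts. In antimycin-treated control myoblasts the sum was 646 to 676. With DMSO the sum was 1023 to 1045 in LbNOX, 976 to 1044 in mitoLbNOX and 1030 to 1098 in NDI1 myoblasts. With piericidin the sum was lower in these lines, at 846 to 946, 836 to 872 and 944 to 987, where Parp1 was not called. Myod1 was 55.7 to 68.0 CPM with antimycin and 101 to 111 with DMSO in LbNOX myoblasts, and Myf5 was 4.74 to 7.44 and 7.36 to 9.51. In mitoLbNOX myoblasts Myod1 was 85.9 to 99.7 with antimycin and 96.9 to 107 with DMSO, and Myf5 was 27.1 to 33.2 and 6.53 to 8.43. The differentiation markers, nearly all Acta1, summed to 15.6 to 22.6 CPM with DMSO, 30.0 to 37.4 with piericidin and 32.3 to 38.7 with antimycin in LbNOX myoblasts. They summed to 14.5 to 20.2, 29.0 to 35.9 and 59.2 to 63.0 in mitoLbNOX myoblasts, and to 14.2 in both DMSO samples and 11.1 to 15.9 with piericidin in NDI1 myoblasts. The part of these markers and of the lower transgene counts in the piericidin and antimycin results of the lines was not tested.

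With piericidin Nampt was called higher in LbNOX and mitoLbNOX myoblasts, neither of which held, and was not called in NDI1 myoblasts. With piericidin it had 88.0, 70.7 and 84.9 CPM in LbNOX myoblasts against 63.2, 72.1 and 60.5 with DMSO, an overlap of 1 sample, and a log2 fold change of 0.34 ± 0.067 (adjusted p = 0.000773) by edgeR (8.87% of all genes called), lost without replicate 1 or 3 (adjusted p up to 0.171). In mitoLbNOX myoblasts the piericidin rise was 0.20 ± 0.066 (adjusted p = 0.0436) by edgeR (11.2%) and was lost under 8 of 10 alternatives, among them each replicate left out (adjusted p up to 0.411), DESeq2 size factors, the DESeq2 Wald test and plate edge as a term. NDI1 myoblasts gave 0 of 9 members with piericidin (0.00835% of all genes; 0 at an unadjusted p under 0.05 in edgeR, and 0 called by DESeq2). Nampt there had 64.1 and 65.9 CPM with piericidin and 67.2 and 64.8 with DMSO, and the interaction of NDI1 with piericidin was -0.34 ± 0.11 (adjusted p = 0.0104) by edgeR, lost without replicate 1 or 3 (adjusted p up to 0.321).

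With antimycin Nampt was called in mitoLbNOX and not in LbNOX myoblasts, and the difference between these lines was not tested. LbNOX myoblasts had 60.5, 58.0 and 57.4 CPM with antimycin and 63.2, 72.1 and 60.5 with DMSO, no sample above the lowest DMSO sample, though the log2 fold change of -0.12 ± 0.067 (adjusted p = 0.156) by edgeR did not pass. MitoLbNOX myoblasts had 90.7, 83.8 and 89.2 with antimycin, all above 69.3, 62.8 and 63.9 with DMSO, a rise of 0.47 ± 0.067 (adjusted p = 6.74e-07) by edgeR in a comparison that called 47.7% of all genes. The LbNOX interaction with antimycin was -0.55 ± 0.095 (adjusted p = 1.26e-05) and held under each alternative, while that of mitoLbNOX was 0.036 ± 0.094 (adjusted p = 0.807) by edgeR. With oligomycin LbNOX myoblasts had 88.6, 83.4 and 88.1 CPM, a rise of 0.44 ± 0.067 (adjusted p = 4.53e-06) by edgeR (35.2%) that held. Myod1 and Myf5 there summed to 73.0 to 83.3 CPM, against 109 to 121 with DMSO. The proliferation markers summed to 801 to 863 against 1023 to 1045, and the differentiation markers to 23.0 to 24.3 against 15.6 to 22.6. The part of these markers in the oligomycin result was not tested.

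With antimycin Nmrk1 fell in control myoblasts and rose in LbNOX myoblasts. In LbNOX myoblasts it had 10.7, 13.6 and 11.3 CPM with antimycin and 6.31, 8.39 and 9.90 with DMSO, where the control line had fallen to between 2.27 and 4.03. The rise in LbNOX was 0.57 ± 0.22 (adjusted p = 0.0354) by edgeR (46.1% of all genes called), lost without replicate 1 or 2 (adjusted p up to 0.204). The interaction was 1.62 ± 0.34 (adjusted p = 0.000164) and held under every alternative. For mitoLbNOX it was 1.01 ± 0.34 (adjusted p = 0.0231) by edgeR, lost without any 1 replicate (adjusted p up to 0.155), with 6.01, 5.13 and 8.35 CPM under antimycin.

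Neither sirtuin gene was called against DMSO in any transgene line. Sirt3 had 6.18, 6.31 and 5.97 CPM with piericidin in LbNOX, 5.97, 6.58 and 5.71 in mitoLbNOX and 4.95 and 6.10 in NDI1 myoblasts. None of these 8 samples reached the 9.35 to 11.1 CPM of the piericidin-treated control myoblasts. The interactions with piericidin were -0.88 ± 0.30 (adjusted p = 0.0181) for LbNOX, -0.95 ± 0.30 (adjusted p = 0.0115) for mitoLbNOX and -0.97 ± 0.34 (adjusted p = 0.0208) for NDI1 by edgeR. Each was lost without replicate 1 or without replicate 3, with adjusted p up to 0.189, 0.182 and 0.368. Sirt1 had 1.86, 3.28 and 2.08 CPM with piericidin and 3.49, 3.61 and 2.68 with antimycin in LbNOX myoblasts. Its LbNOX interactions, -1.18 ± 0.43 (adjusted p = 0.0263) with piericidin and -1.004 ± 0.42 (adjusted p = 0.0482) with antimycin by edgeR, were lost without replicate 1 or 2 (adjusted p up to 0.193 and 0.189), the second also without replicate 3.

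The genes that act on NADP were also called in some lines. In LbNOX myoblasts antimycin gave Nadk levels of 412, 381 and 385 CPM against 346, 348 and 329 with DMSO, a rise of 0.24 ± 0.035 (adjusted p = 1.47e-06) by edgeR that held, while the response to antimycin in mitoLbNOX was lower than in luciferase myoblasts by 0.15 on the log2 scale (adjusted p = 0.0179, lost without any 1 replicate, up to 0.294). The LbNOX interaction of Nadk with oligomycin, the only member called there (7.98% of all genes), was -0.18 ± 0.05 (adjusted p = 0.0244) by edgeR and was also lost without any 1 replicate (up to 0.408). Nadk2 rose with antimycin in LbNOX by 0.79 ± 0.31 (adjusted p = 0.0365) by edgeR, lost without replicate 1 or 2 (up to 0.386). Its LbNOX interaction with piericidin, 1.13 ± 0.45 (adjusted p = 0.0431), was lost without any 1 replicate (up to 0.137). Nnt fell with oligomycin in LbNOX by 0.30 ± 0.10 on the log2 scale (adjusted p = 0.0215) in edgeR with overlapping samples, lost without replicate 2 or 3 (up to 0.256). The mitoLbNOX interactions with piericidin for Nnt, 0.42 ± 0.14 (adjusted p = 0.0174), and Nmnat1, 0.77 ± 0.26 (adjusted p = 0.0156) by edgeR, were lost without the same replicates (up to 0.0916 and 0.362).

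No member was called after 48 hr of chloramphenicol. In edgeR 0 of 9 were called in control myoblasts (8.45% of all genes), in LbNOX myoblasts (0.931%) or as an interaction (0.53%). At an unadjusted p under 0.05 the count was also 0 in each, as it was by DESeq2. Nampt had 59.8 and 69.4 CPM with DMSO and 74.3 and 62.3 with chloramphenicol in control myoblasts, and Parp1 had 125 and 133 with DMSO and 119 and 113 with chloramphenicol. The Nampt samples overlapped, and the interval of its log2 fold change was -0.079 to 0.34. For Parp1 both chloramphenicol samples lay below DMSO, with an interval of -0.22 to 0.025. With 2 samples per group these intervals are wide for the low genes, such as -0.44 to 0.94 for Sirt1.

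In day 1 cells, taken 24 hr after the change to low serum, 0 of 9 members passed with piericidin (2.75% of all genes; 1 at an unadjusted p under 0.05 in edgeR, and 0 called by DESeq2) and 2 with oligomycin (20.7%). Nampt had 31.8, 28.9 and 29.4 CPM with DMSO, 36.9, 40.7 and 35.1 with piericidin and 36.3, 44.5 and 43.8 with oligomycin. Treated samples were above DMSO for both agents, with 0.33 ± 0.10 (adjusted p = 0.109) for piericidin and 0.50 ± 0.10 (adjusted p = 0.00318) for oligomycin by edgeR. The oligomycin call was lost without replicate 2 or 3 (adjusted p up to 0.0654). Sirt3 rose with oligomycin by 0.54 ± 0.17 (adjusted p = 0.0477) in edgeR and was lost without any 1 replicate (up to 0.267). Parp1 had 66.6, 70.3 and 68.5 CPM with DMSO and 60.3, 66.6 and 59.2 with oligomycin. That difference of -0.12 ± 0.067 (adjusted p = 0.271 by edgeR) did not pass. The proliferation markers summed to 179 to 199.7 CPM with DMSO, 159.1 to 169 with piericidin and 147 to 159.7 with oligomycin. Myod1 and Myf5 summed to 211 to 226, 236 to 251 and 211 to 223. The differentiation markers summed to 11921 to 12527, 11932 to 12321 and 11651 to 11853. The part of these markers in the results was not tested.

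In myotubes the comparison of single agents with DMSO gave 1 of 10 members for piericidin (8.99% of all genes called), 1 for antimycin (12.9%), 2 for oligomycin (33.3%) and 5 for BAM15 (25.4%). Nampt was the member that moved with 3 of the 4 agents, down with the inhibitors of electron transport and up with the uncoupler. It had 40.9, 37.6 and 43.8 CPM with DMSO, 32.1, 29.5 and 30.5 with piericidin, 33.6, 33.0 and 28.4 with antimycin, 34.7, 42.7 and 43.2 with oligomycin and 94.6, 90.4 and 83.0 with BAM15. BAM15 samples were all above 80 CPM and every other single-agent sample was below 44, while oligomycin overlapped DMSO. Markers of cell state moved with all 4 agents. The 7 differentiation markers summed to 12409 to 12794 CPM with DMSO, 14269 to 14547 with piericidin, 13559 to 13705 with antimycin, 14546 to 14806 with oligomycin and 14613 to 15334 with BAM15, of which Acta1 was 6002 to 6146 with DMSO and 8147 to 8556 with BAM15. Myod1 was 150.5 to 159 CPM with DMSO and 126 to 128 with BAM15. The part of these markers in the results was not tested.

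The BAM15 rise of Nampt was 2.21-fold, or 1.14 ± 0.081 (adjusted p = 1.14e-10) on the log2 scale by edgeR, and held under each alternative and without each replicate. The fall was 0.41 ± 0.086 on the log2 scale (adjusted p = 0.00285) with piericidin and 0.35 ± 0.084 on the log2 scale (adjusted p = 0.00596) with antimycin by edgeR. Without replicate 2 or 3 the piericidin call was lost (adjusted p up to 0.0719), and without replicate 3 the antimycin call was lost (adjusted p = 0.163). The oligomycin interval for Nampt was -0.18 to 0.15.

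BAM15 also moved the kinases. Nadk had 113, 109.8 and 109.7 CPM with DMSO and 89.3, 89.2 and 83.5 with BAM15, a fall of 0.33 ± 0.055 on the log2 scale (adjusted p = 7.32e-05) by edgeR that held under each alternative. Nmrk1 had 4.72, 5.41 and 6.89 CPM with DMSO and 10.2, 9.11 and 10.0 with BAM15, a rise of 0.79 ± 0.20 (adjusted p = 0.00551) by edgeR that was lost without replicate 1 or 2 (adjusted p up to 0.0728). Nadk2 rose by 0.65 ± 0.23 (adjusted p = 0.0419) in edgeR and was lost without any 1 replicate (adjusted p up to 0.290) and under 4 other alternatives, plate edge among them (up to 0.219).

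Sirt3 had 9.86, 5.50 and 8.21 CPM with DMSO, 12.2, 11.3 and 11.1 with oligomycin and 11.6, 11.6 and 12.03 with BAM15 in myotubes. One DMSO sample lay below the rest, and the rises of 0.56 ± 0.18 (adjusted p = 0.0162) with oligomycin and 0.60 ± 0.18 (adjusted p = 0.0150) with BAM15 by edgeR were both lost without replicate 2 or 3 (adjusted p up to 0.118 and 0.129). Nmnat3, the least expressed member, had 0.411, 1.62 and 0.755 CPM with DMSO and 2.32, 3.47 and 1.81 with oligomycin. It passed the filter of 16 counts only through groups with oligomycin, where it is high, so its call in this comparison (1.43 ± 0.49, adjusted p = 0.0280 by edgeR), 1 of the 2 counted for oligomycin, supports nothing by itself. That call was also lost without the filter, without replicate 1 or 3 (adjusted p up to 0.138) and with plate edge as a term. Parp1, which fell in inhibited myoblasts, had 75.6, 71.7 and 66.9 CPM with DMSO and 71.0, 75.4 and 69.0 with piericidin in myotubes, with an interval of -0.16 to 0.19 for the log2 fold change.

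**Figure D4:**
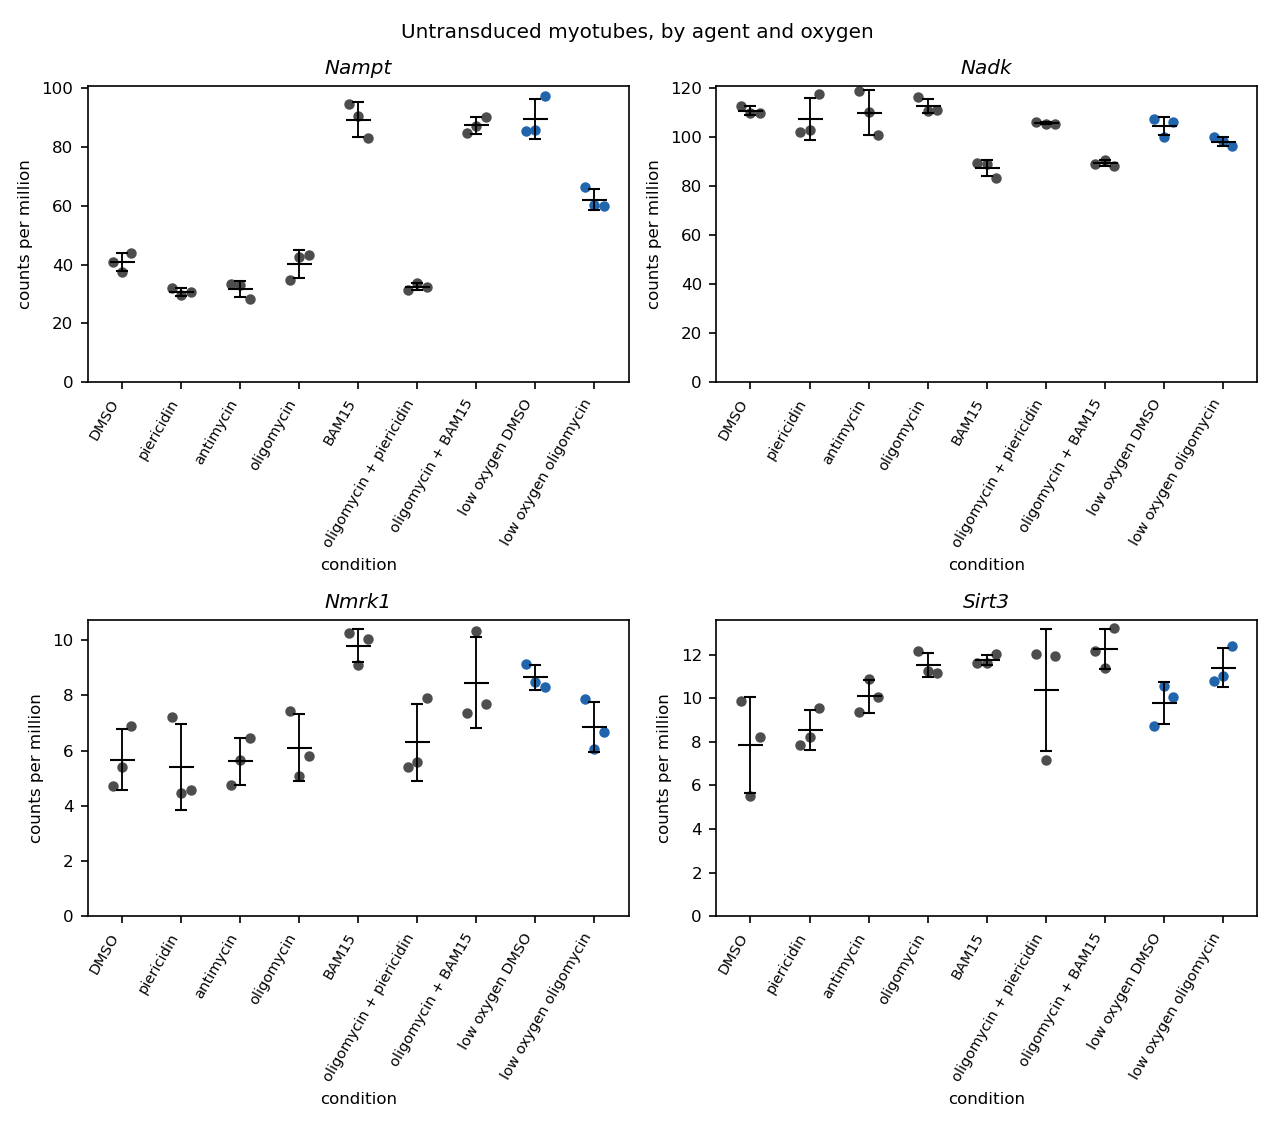
Levels of Nampt, Nadk, Nmrk1 and Sirt3 in the 9 groups of untransduced myotubes, in CPM. Points are samples and bars are the mean ± SD (n = 3). The Nampt points of BAM15, of oligomycin with BAM15 and of both groups at 5% oxygen lie above those of the other groups.

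Combined treatments ask which agent sets the level when oligomycin is joined by another. With oligomycin and BAM15 together, Nampt had 84.7, 86.9 and 90.3 CPM, close to BAM15 alone and 1.12 ± 0.081 (adjusted p = 8.42e-11) in log2 fold change above oligomycin alone by edgeR (2 of 10 members called, 26.1% of all genes). Nadk was the other called member, lower by 0.34 on the log2 scale (edgeR adjusted p = 4.25e-05). Both calls held under each alternative. Against BAM15 alone the combination changed 0 of 10 members (1.7% of all genes; 0 at an unadjusted p under 0.05 in edgeR, and 0 called by DESeq2), and for Nampt the interval was -0.19 to 0.11.

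With oligomycin and piericidin together Nampt had 31.4, 33.7 and 32.3 CPM, where 1 sample lay within the range of piericidin alone and the others just above it. It lay below oligomycin alone by 0.31 on the log2 scale (edgeR adjusted p = 0.00862; 1 of 10 members, 20.9% of all genes), a call lost without replicate 2 or 3 (adjusted p up to 0.142). Against piericidin alone 0 of 10 members were called (1.19% of all genes; 0 at an unadjusted p under 0.05 in edgeR, and 0 called by DESeq2), and the Nampt interval was -0.10 to 0.25.

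At 5% oxygen, which began the night before treatment, Nampt of DMSO-treated myotubes had 85.6, 85.6 and 97.3 CPM against 40.9, 37.6 and 43.8 at normal oxygen. All samples at low oxygen lay above all at normal oxygen, a 2.20-fold rise with a log2 fold change of 1.14 ± 0.081 (adjusted p = 6.78e-11) by edgeR (2 of 10 members called, 22.1% of all genes), which held under each alternative. Nmrk1 was the other, at 0.60 ± 0.20 (adjusted p = 0.0354) by edgeR, lost without any 1 replicate (adjusted p up to 0.235). The proliferation markers moved with oxygen, at a summed 101 to 125 CPM at normal and 21.0 to 23.8 at low oxygen. The differentiation markers were higher at low oxygen, at a summed 14859.8 to 15225 CPM against 12409 to 12794, and the myoblast markers Myod1 and Myf5 lower, at 141 to 147 against 160.0 to 167. The part of these markers in the result was not tested.

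Oligomycin lowered Nampt at 5% oxygen to 66.2, 60.1 and 59.9 CPM, a fall of 0.51 ± 0.079 on the log2 scale (adjusted p = 0.000162) by edgeR (1 of 10 members, 4.26% of all genes) that held. It was still above oligomycin at normal oxygen by 0.64 ± 0.082 (adjusted p = 1.02e-06) (edgeR; 2 of 10 members, 33.3% of all genes). Nadk was lower by 0.19 on the log2 scale in that comparison (edgeR adjusted p = 0.0110, lost without replicate 1 or 2 at up to 0.0761). The interaction of oxygen and oligomycin for Nampt was -0.50 ± 0.11 (adjusted p = 0.00323) by edgeR (1 of 10 members, 17.4% of all genes), lost without replicate 2 (adjusted p = 0.158).

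In transduced myotubes 0 of 10 members passed for piericidin with GFP (3.09% of all genes), 1 for oligomycin with GFP (25.9%), 1 for piericidin with LbNOX (6.78%) and 0 for oligomycin with LbNOX (32.0%). At an unadjusted p under 0.05 in edgeR, 1 member passed for piericidin with GFP and 3 for oligomycin with LbNOX, and DESeq2 called 0 in both. Both called tests were of Nampt. With LbNOX it had 43.6, 53.1 and 48.0 CPM with DMSO and 34.1, 33.4 and 34.6 with piericidin, a fall of 0.51 ± 0.078 on the log2 scale (adjusted p = 0.00102) by edgeR, lost without replicate 2 (adjusted p = 0.0691). With GFP it had 37.5 and 39.5 with DMSO, 31.6 and 33.5 with piericidin and 48.4 and 47.2 with oligomycin. The piericidin samples were below DMSO without passing (-0.24 ± 0.10, adjusted p = 0.222 by edgeR). The oligomycin rise of 0.30 ± 0.095 (adjusted p = 0.0315) by edgeR was lost whichever replicate number was left out. Number 3 occurs only with LbNOX, and leaving out 1 or 2 left 1 sample per GFP group. The rise was also lost under 4 other alternatives, plate edge among them (adjusted p up to 0.0914). Differentiation markers summed to 10807 to 11223 CPM with DMSO, 12813 to 13774 with piericidin and 12104 to 12303 with oligomycin in GFP groups. With LbNOX the sums were 10943 to 11661, 13481 to 14082 and 12033 to 12651. The part of these markers in the results was not tested.

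LbNOX itself changed 0 of 10 members against GFP in DMSO-treated myotubes (0.0242% of all genes). The interactions of LbNOX with piericidin and with oligomycin called 0 members and 0.0% of all genes in each. At an unadjusted p under 0.05 in edgeR, 2, 2 and 1 members passed, in that order, and DESeq2 called 0 in each. For Nampt the interaction interval with piericidin was -0.51 to -0.025 on the log2 scale, and the adjusted p by edgeR was 0.932.

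Between cell states the members differed in level, in DMSO-treated samples without other agents. These comparisons also differ in serum, transgene, doxycycline and time in culture, which cannot be told apart from the state. Myotubes and day 1 cells had less of 3 members than control myoblasts. Nadk fell from 314, 319 and 318 CPM in myoblasts to 132, 129.6 and 137 in day 1 cells and 113, 109.8 and 109.7 in myotubes. The log2 fold change of Nadk was -1.25 ± 0.064 (adjusted p = 2.63e-16) for day 1 cells (4 of 10 members called, 63.6% of all genes) and -1.48 ± 0.065 (adjusted p = 4.74e-18) for myotubes (5 of 10, 69.4%) by edgeR. Parp1 fell by 0.92 and 0.83 on the log2 scale, with edgeR adjusted p of 7.12e-11 and 5.51e-10, and the samples of myoblasts did not overlap those of either state. The summed proliferation markers were 1059 to 1106 CPM in these myoblasts and 101 to 125 in myotubes, and their part in the Parp1 result was not tested.

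Nampt was lowest in day 1 cells, at 31.8, 28.9 and 29.4 CPM, below every sample of the other states, with 64.9 to 71.6 in myoblasts and 37.6 to 43.8 in myotubes. It fell by 1.18 ± 0.085 on the log2 scale (adjusted p = 6.13e-13) from myoblasts to day 1 cells and rose by 0.47 ± 0.087 (adjusted p = 7.64e-05) from day 1 cells to myotubes in edgeR (3 of 10 members, 35.6% of all genes). Nnt went the other way, with 108, 103 and 111 CPM in day 1 cells, 73.5, 80.4 and 69.2 in myotubes and 65.6, 58.9 and 61.8 in myoblasts. It rose by 0.80 ± 0.074 (adjusted p = 1.68e-10) into day 1 cells and fell by 0.50 ± 0.074 on the log2 scale (adjusted p = 4.24e-06) from there to myotubes by edgeR, and both calls held under each alternative. Its rise from myoblasts to myotubes, 0.30 ± 0.075 (adjusted p = 0.000825), was lost without replicate 2 (adjusted p = 0.0804). Nmnat3 had 0, 0.493 and 0.370 CPM in myoblasts and 0.411, 1.62 and 0.755 in myotubes, with overlap, and its call (1.64 ± 0.67, adjusted p = 0.0315 by edgeR) was lost without any 1 replicate (adjusted p up to 0.156) and without the filter, which it passed only through oligomycin-treated myotubes. Nadk between myotubes and day 1 cells, -0.23 ± 0.065 (adjusted p = 0.00679) by edgeR, was lost with plate edge as a term (adjusted p = 0.182), where all 9 day 1 samples are at the edge if the code is a well.

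The response to an inhibitor also differed between states when tested as an interaction, the log2 fold change in myotubes minus that in control myoblasts. With piericidin 5 of 10 members were called (46.5% of all genes), with antimycin 3 (47.9%) and with oligomycin 2 (29.0%). For Nampt the interaction was -0.70 ± 0.12 (adjusted p = 1.95e-05) with piericidin and -0.74 ± 0.12 (adjusted p = 8.43e-06) with antimycin by edgeR, up in myoblasts and down in myotubes. For Parp1 it was 0.84 ± 0.12 (adjusted p = 1.11e-06) with piericidin and 0.76 ± 0.12 (adjusted p = 4.92e-06) with antimycin by edgeR. These 4 held under each alternative and without each replicate.

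The other calls of this kind were less stable. Nadk2 and Nmnat1 with piericidin, at 1.04 ± 0.42 (adjusted p = 0.0404) and 0.66 ± 0.23 (adjusted p = 0.0192) by edgeR, were lost without replicate 2 or 3 (adjusted p up to 0.214 and 0.247), and Nadk2 also without replicate 1. Nnt with piericidin, 0.44 ± 0.11 (adjusted p = 0.00139) by edgeR, was lost without replicate 1 or 3 (up to 0.0877). Nmrk1 with antimycin, 1.08 ± 0.34 (adjusted p = 0.00990), and Nampt with oligomycin, -0.39 ± 0.12 (adjusted p = 0.0133) by edgeR, were lost without replicate 1 or 2 (up to 0.165 and 0.178) and with plate edge as a term. Sirt3 with oligomycin, 0.88 ± 0.27 (adjusted p = 0.0148) by edgeR, was lost without replicate 2 or 3 (up to 0.240) and with plate edge as a term.

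The wider NAD pathway was followed through 59 further genes in 4 lists. In control myoblasts with piericidin, 2 rose and 5 fell of the 8 tested genes of NAD synthesis and salvage, with a median log2 fold change of -0.41 beside -0.0037 over all genes. Of 9 genes of NAD(P) transport and breakdown 1 rose and 6 fell, of 18 NAD-consuming enzymes 2 rose and 7 fell, and of 7 NADPH-producing enzymes 1 rose and 6 fell. With antimycin 0 rose and 4 fell in the first list, 1 rose and 5 fell in the second, 4 rose and 8 fell in the third and 1 rose and 5 fell in the last. With oligomycin 1 rose and 1 fell in the first list, 1 rose and 2 fell in the second, 1 rose and 5 fell in the third and 0 rose and 4 fell in the last. The median log2 fold change of the NAD-consuming enzymes with oligomycin was -0.014, beside -0.015 over all genes. These counts are to be read beside the 61.7%, 63.2% and 50.8% of all genes called with piericidin, antimycin and oligomycin. With oligomycin the first 3 lists had smaller called shares than all genes, as had the NAD-consuming enzymes with piericidin (9 of 18) and the synthesis and salvage genes with antimycin (4 of 8).

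Idh1, the cytosolic isocitrate dehydrogenase that makes NADPH, had the largest change of the lists with piericidin, at -2.80 ± 0.10 (adjusted p = 2.56e-20) in log2 fold change (10.1 against 71.7 CPM with DMSO) by edgeR. The antimycin value was -1.92 ± 0.10 (adjusted p = 4.6e-17) and the oligomycin value -1.76 ± 0.094 (adjusted p = 4.86e-16), again lower than DMSO. Parp16, an ADP-ribosyltransferase of the endoplasmic reticulum, changed by -1.88 ± 0.31 (adjusted p = 4.24e-06) with piericidin and -2.26 ± 0.32 (adjusted p = 3.6e-07) with antimycin by edgeR. G6pdx, which opens the pentose phosphate pathway, changed by -1.43 ± 0.067 (adjusted p = 1.33e-17) with antimycin, and Enpp1, an enzyme that splits nucleotides outside the cell, by -1.71 ± 0.16 (adjusted p = 1.95e-10) with piericidin.

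Nmrk2, the muscle form of the nicotinamide riboside kinase, was among the called salvage genes in myotubes. It had 0 to 7 counts in each myoblast sample, so no fold is given there. In myotubes it had 9.02, 10.6 and 12.8 CPM with DMSO, 30.5, 34.3 and 34.7 with piericidin and 38.8, 41.1 and 44.5 with antimycin. The inhibited samples were all above DMSO, with log2 fold changes of 1.62 ± 0.14 (adjusted p = 7.69e-09) and 1.95 ± 0.13 (adjusted p = 1.72e-10) by edgeR, where its paralogue Nmrk1 did not pass (-0.10 ± 0.22, adjusted p = 0.859 with piericidin, and -0.018 ± 0.21, adjusted p = 0.973 with antimycin). Nmrk2 also rose with piericidin in GFP-transduced myotubes by 1.60 ± 0.12 (adjusted p = 5.51e-06), in LbNOX-transduced myotubes by 2.04 ± 0.10 (adjusted p = 2.55e-08) and in day 1 cells by 1.62 ± 0.10 (adjusted p = 3.89e-05) by edgeR. In DMSO-treated myotubes Nmrk2 was lower at 5% oxygen, at -0.65 ± 0.15 (adjusted p = 0.00251 by edgeR), opposite in sign to Nampt. With oligomycin it overlapped between oxygen levels, at 10.5 to 13.2 CPM at low and 12.2 to 15.7 at normal oxygen. Within 5% oxygen oligomycin raised it by 0.85 ± 0.15 (adjusted p = 0.000833) by edgeR. Art1, a muscle ADP-ribosyltransferase at the cell surface, changed by -2.34 ± 0.08 (adjusted p = 2.77e-17) with oligomycin in myotubes and, in oligomycin with BAM15 against oligomycin alone, by 2.70 ± 0.08 (adjusted p = 2.97e-18) by edgeR.

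Genes with the most similar pattern to each member were found over 10112 genes, by the correlation of log2 CPM means over the 35 conditions after the mean of each of 5 experiments was subtracted. The points share libraries and control groups, so the coefficients are descriptions only. Nampt was most like Hilpda (r = 0.95), Seh1l (r = 0.91) and Ier3 (r = 0.86), Nmrk1 most like Pold4 (r = 0.82), Slc41a1 (r = 0.81) and Rassf7 (r = 0.80), and Nmnat1 most like Ago1 (r = 0.82), Babam1 (r = 0.82) and Fis1 (r = 0.81). Parp1 had Tipin (r = 0.95), Fam111a (r = 0.95) and Rpa1 (r = 0.94), Sirt1 had Mul1 (r = 0.86), Smcr8 (r = 0.82) and Flcn (r = 0.81), and Sirt3 had Ccnk (r = 0.74), Toe1 (r = 0.72) and Ptcd1 (r = 0.67). For Nadk the genes were Aldh7a1 (r = 0.76), Ttpal (r = 0.73) and Plxna1 (r = 0.65), for Nadk2 Nedd9 (r = 0.71), Tmem59 (r = 0.70) and Cog4 (r = 0.66), and for Nnt Fbln1 (r = 0.66), Dpy19l3 (r = 0.62) and Laptm4b (r = 0.62). Nmnat3 did not pass the filter in all 5 experiments.

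Nnt is listed as ENSMUSG00000116207 at chr13:119335528-119408952 and ENSMUSG00000025453 at chr13:119335448-119408997, overlapping on the minus strand, and reads could be divided between them by the estimation. The first is the entry used above. The second held 0 to 211 counts and was called in 1 comparison, oligomycin in control myoblasts, at -2.25 ± 0.94 (adjusted p = 0.0473) by edgeR with overlapping samples. Adding the counts of both entries before the fit, a choice made after seeing the data, ended no call.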

How the data were processed

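RNA-seq was measured in 96 C2C12 samples. The authors deposited estimated counts: polyA-selected, unstranded Smart-seq2 libraries were demultiplexed with bcl2fastq 2.20.0.422 and quantified with kallisto 0.44 on the mouse transcriptome (GRCm38) with transgenes, summed to genes with tximport and over flow cells, as whole numbers without normalization. Estimation divides reads between genes that share sequence. Groups came from the sample labels, and doses from the methods of the study. The 10 genes, the wider lists and the tests were chosen with earlier results of these data known.

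A gene entered a fit when all replicates of some group reached 16 counts. Over 6 fits and 51 comparisons, TMM-scaled counts were compared by edgeR 4.0.16 (R 4.3.3) using its quasi-likelihood F statistic. The p-values were adjusted by Benjamini-Hochberg within each comparison, and 0.05 was the threshold. SE was taken as |log2 fold change| / √F. Intervals are 95% by the normal quantile, so they are too narrow, most of all in fits with few samples. The 10 members are named wherever called. Of the wider lists, at most the 3 called genes with the largest change and a mean of at least 50 counts are named for a comparison. Most similar genes are the 3 with the highest Pearson correlation of log2(CPM + 0.5) means.

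Alternatives were DESeq2 size factors, no filter, the DESeq2 1.42.0 Wald test, the replicate number as a block, plate edge as a term (an unexplained code of the labels, taken to be a plate well), only the groups compared, and each replicate number left out of all groups of a fit (1 sample at a time for chloramphenicol). Summing both Nnt entries was added after seeing the data, as were the HIF and E2F motifs. The test was also run on simulated counts in which 200 genes changed in 1 group and all other genes were equal between groups. In the data many more genes were called, such as 61.7% with piericidin in control myoblasts. The simulated recovery and false calls therefore do not measure performance there. Simulated, the piericidin comparison in control myoblasts recovered 77 of 100 genes changed by 1 on the log2 scale. It recovered 97 of 100 changed by 2, with 7 false calls among 11981 genes. The chloramphenicol comparison recovered 63 of 100 and 91 of 100, with 15 false calls among 11704 genes. The interaction of LbNOX and piericidin recovered 73 of 100 and 84 of 100, with 10 false calls among 11981 genes. Of 87 replicate pairs, 0 were identical. Promoters and their coordinates are RefSeq (GRCm38.p6); gene positions are from GENCODE vM21.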

Additional observations from a re-analysis of the deposited data

Results flagged for a closer look

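Differences between lines, oxygen levels or cell states in the response of a member to the same agent, tested as interaction terms in edgeR, passed 30 times in 123 tests. The members were not called more often than other genes, with 35.2% of member tests beside 36.8% of all tests for transgene interactions in myoblasts and 33.3% beside 41.1% for cell state. Of the 30, 11 held under every alternative and without each replicate, namely the 7 of Parp1, the 3 of Nampt with LbNOX and antimycin and with cell state under piericidin or antimycin, and that of Nmrk1 with LbNOX and antimycin. The other 19 were lost in at least one. Values are log2 differences of log2 fold changes, transgene minus luciferase, low minus normal oxygen, or myotubes minus control myoblasts.

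For piericidin, LbNOX gave 1.13 for Nadk2, -0.88 for Sirt3, -1.18 for Sirt1 and 0.68 for Parp1. MitoLbNOX gave 0.77 for Nmnat1, -0.95 for Sirt3, 0.73 for Parp1 and 0.42 for Nnt. NDI1 gave -0.97 for Sirt3, 0.71 for Parp1 and -0.34 for Nampt. Parp1 and Sirt3 passed with all 3 transgenes.

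For antimycin, LbNOX gave 0.84 for Parp1, -0.55 for Nampt, 1.62 for Nmrk1 and -1.004 for Sirt1. MitoLbNOX gave 0.61 for Parp1, 1.01 for Nmrk1 and -0.15 for Nadk. For oligomycin, LbNOX gave -0.18 for Nadk, and low oxygen in myotubes gave -0.50 for Nampt.

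Between myotubes and control myoblasts, the response to piericidin differed by 1.04 for Nadk2, -0.70 for Nampt, 0.44 for Nnt, 0.66 for Nmnat1 and 0.84 for Parp1. The response to antimycin differed by 0.76 for Parp1, -0.74 for Nampt and 1.08 for Nmrk1. The response to oligomycin differed by -0.39 for Nampt and 0.88 for Sirt3. All of these differences share the DMSO-treated control myoblasts except that of low oxygen.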

How the results depend on the processing

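Of 484 tests of members, 101 passed. Of these, 46 passed under every alternative and without each replicate, 55 were lost in at least one, and 0 reversed. Leaving out a replicate ended the most, 54 of the 55, the exception being Nadk between myotubes and day 1 cells. Of the other alternatives, 29 were lost without the filter on low counts and 19 of 100 with only the groups compared in the fit, while the DESeq2 Wald test lost 8, plate edge 9 of 99 and DESeq2 size factors 3. The cause of these losses was not tested.

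Counts of called members moved by over 1.5 times in these cases. Without the filter, inhibitors in transgene myoblasts gave 5 (8 in the report), transgene interactions 11 (19), transgene against luciferase 0 (1), transduced myotubes 1 (2) and day 1 cells 1 (2). With the DESeq2 Wald test, transduced myotubes gave 1 and day 1 cells 1, while the oligomycin interaction with cell state alone gave 4 (2). With only the groups compared, inhibitors in transgene myoblasts gave 4, transgene against luciferase 0 and transduced myotubes 1. With plate edge, transgene against luciferase gave 2. Plate edge was not run for day 1 cells, all 9 of which are at the edge as the code is read here.

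With 1 replicate left out, counts ran from 4 to 5 for inhibitors in transgene myoblasts, 9 to 11 for transgene interactions, 0 to 1 for transgene against luciferase, 1 to 1 for transduced myotubes, 0 to 1 for day 1 cells, 6 to 7 for state interactions (10), 3 to 6 for single agents in myotubes (9), 5 to 8 for combinations and low oxygen (9) and 7 to 8 for inhibitor against inhibitor (12). Where this left 1 sample in a group, it was taken to vary like the others.

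Replicate numbers shared between groups were tried as a block. In myoblasts the mean residual correlation was 0.034 for samples with the same number (71 of 211 pairs over 0.1) and -0.017 for different numbers, and in day 1 cells 0.054 (3 of 9 pairs) and -0.027. The other 4 fits had means of -0.041 to 0.016 for the same number. Deviations were taken from group means, so the values for different numbers largely follow from those for the same number. Since not every pair was over 0.1, the number was not taken as a pairing. That rule is strict and does not exclude a pairing. The replicate block left 1 call in day 1 cells, ending that of Sirt3, and also ended Sirt3 in antimycin against oligomycin; it changed no other call.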
